A study of Mus musculus with 12 samples.

Results

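The genes described here are the 5 acute-phase genes Lcn2, Saa3, Serpina3n, Steap4 and Hp, followed through bulk RNA-seq of mouse retina. They are 5 of the 25124 genes listed in each of the 2 deposited tables, were found there by their symbols, and were selected because earlier results of these data had shown their levels after elevation of intraocular pressure (IOP). The differences between IOP and control retinas and between 18mo and 3mo retinas are therefore given as a description. No p-value is printed for these genes there, and where members past the threshold of the fit across all genes are counted, the count is part of that description. All 5 genes passed the filter on low values in the repeated-IOP table and 4 of 5 did in the single-IOP table, where Hp did not. The control retinas alone would not have passed it for Saa3 and Steap4 in either table or for Hp in the repeated-IOP table, so that these genes were tested because they were high in IOP retinas, and their calls and fitted changes carry that limit.

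The 12 libraries were made from retinas of wild-type C57BL/6J mice and formed 6 groups of 2. In the single-IOP series, an eye of 3-month-old (3mo) or 18-month-old (18mo) mice was held at 30 mmHg for 1 h through a needle in the anterior chamber, and the retinas were taken on day 2. These groups are called 3mo IOP and 18mo IOP, and the untreated fellow eyes 3mo control and 18mo control. In the repeated-IOP series, the same elevation was given 4 times every 2 weeks to mice that were 3 months old at the first, and retinas were taken on day 2 after the last (4xIOP), with the untreated fellow eyes as 4xIOP control. No library came from an eye that was cannulated without pressure, so that the pressure and the procedure cannot be told apart in these groups. In bulk retina, fewer cells of a type and less RNA per cell cannot be told apart either.

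The acute-phase response is the change in secreted proteins that follows tissue injury or infection. In the liver it is driven by interleukin-6 and interleukin-1 through the transcription factors STAT3, C/EBP beta, C/EBP delta and NF-kB, and several of its genes are also transcribed in other injured tissues, in glia of the retina and brain among them. Lcn2 encodes lipocalin-2, which withholds iron from bacteria by binding their siderophores. Hp encodes haptoglobin, which captures free haemoglobin. Saa3 encodes a serum amyloid A made mainly outside the liver, Serpina3n a secreted inhibitor of serine proteases, and Steap4 a membrane metalloreductase that reduces iron and copper. Lcn2 and Hp are also genes of neutrophil granules, and Lcn2 and Serpina3n are used as markers of reactive astrocytes.

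On mm10, the genome build of the tables, each gene is represented by the exons of a single transcript. Lcn2 (NM_008491, chromosome 2, 32384637 to 32387739, minus strand) has 845 bases of transcript. Saa3 (NM_011315, chromosome 7, 46711998 to 46715676, minus strand) has 525 bases and Serpina3n (NM_009252, chromosome 12, 104406708 to 104414329, plus strand) has 2078. Steap4 (NM_054098, chromosome 5, 7960472 to 7982213, plus strand) has 3133 bases. Hp (chromosome 8, 109575128 to 109579172, minus strand) was counted on NM_001329965 with 1252 bases in the single-IOP table and on NM_017370 with 1338 bases in the repeated-IOP table. None of the 5 spans overlapped another gene of GENCODE M21. The genes lie on 5 different chromosomes, so that neighbouring position is not something they share.

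Since the levels of these genes moved together between libraries, the 250 bases before the start of transcription are shown for the 4 genes with an entry in the RefSeq promoter table (GRCm38.p6, the sequence of mm10), Hp having none. They are written 5′ to 3′ on the strand of the gene, and capitals mark letters that match any of 5 motifs of acute-phase promoters on either strand. The motifs were the TATA box (TATAAA), a C/EBP motif (TTGCNNAA), a STAT motif (TTCNNNGAA), the type II element of the interleukin-6 response (CTGGGAA) and an NF-kB motif (GGGANNNNCC). The regions are chr2:32387740-32387989 for Lcn2, chr7:46715677-46715926 for Saa3, chr12:104406458-104406707 for Serpina3n and chr5:7960222-7960471 for Steap4.
Lcn2: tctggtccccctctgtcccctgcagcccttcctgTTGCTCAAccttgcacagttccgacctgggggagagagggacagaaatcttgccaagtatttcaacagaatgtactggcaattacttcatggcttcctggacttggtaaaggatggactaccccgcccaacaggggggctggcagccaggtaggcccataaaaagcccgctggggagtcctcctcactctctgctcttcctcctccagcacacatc
Saa3: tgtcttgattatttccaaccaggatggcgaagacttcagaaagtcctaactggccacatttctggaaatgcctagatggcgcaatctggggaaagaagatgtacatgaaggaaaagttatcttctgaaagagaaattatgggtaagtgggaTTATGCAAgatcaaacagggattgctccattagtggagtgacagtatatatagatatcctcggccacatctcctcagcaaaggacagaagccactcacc
Serpina3n: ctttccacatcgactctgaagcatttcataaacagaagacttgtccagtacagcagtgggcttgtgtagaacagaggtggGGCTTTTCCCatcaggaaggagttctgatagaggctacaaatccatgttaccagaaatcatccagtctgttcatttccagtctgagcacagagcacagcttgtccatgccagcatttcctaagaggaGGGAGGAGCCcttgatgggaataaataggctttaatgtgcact
Steap4: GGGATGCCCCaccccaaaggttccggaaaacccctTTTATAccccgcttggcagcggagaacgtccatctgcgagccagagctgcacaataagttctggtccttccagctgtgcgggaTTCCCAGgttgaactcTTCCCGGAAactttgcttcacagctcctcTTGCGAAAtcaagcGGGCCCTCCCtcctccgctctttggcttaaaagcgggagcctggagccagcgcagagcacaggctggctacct
The C/EBP letters stood in 3 of the 4 promoters. Counted from the start of transcription, they lay at -216 to -209 in Lcn2, at -99 to -92 on the opposite strand in Saa3, and at -87 to -80 in Steap4. The Steap4 promoter held all 5 motifs, among them the STAT letters at -116 to -108 and the type II element on the opposite strand at -132 to -126. Its TATA letters lay on the opposite strand at -215 to -210. Serpina3n held the NF-kB letters in 2 places and none of the other 4 motifs. Among 32851 mouse promoters of the same length, 9.56% held the C/EBP letters, 7.02% the STAT letters, 9.10% the type II element, 17.6% the NF-kB letters and 12.4% the TATA box. These matches describe letters in a short window and say nothing of whether a factor binds there.

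Levels are given as FPKM, reads normalised to the length of the transcript and to the mapped tags of the library. Depth recovered from the values lay between 39766258 and 59455059 tags per library, of which between 44.2% and 71.5% were in exons, the share being lower in the repeated-IOP series. The lowest level read as measured was 3 reads, which is 0.0597 to 0.0893 FPKM for Lcn2 and 0.0961 to 0.144 for Saa3, the shortest of the 5, and covers counting error only. Of the rod photoreceptor markers, 11 of 11 had more than 3 reads in every library, so that the labelled tissue was borne out by its defining markers. The summed rod markers were lower in 4xIOP retinas (6131 and 9246 FPKM) than in their controls (12802 and 13487). They were also lower in 18mo IOP (14321 and 17039 FPKM) than in 18mo control retinas (21147 and 18748), while the 3mo groups overlapped. The ratio of short to long transcripts was 1.89 and 4.70 in the 3mo control libraries but 1.198 to 1.36 in the 18mo libraries, so that length and age moved together.

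Lcn2 had the highest level of the 5 genes in 5 of 12 libraries, in both 4xIOP retinas among them. After a single elevation it had 46.5 and 68.0 FPKM in 3mo IOP retinas, where 3mo control retinas had 4.67 and 5.63. In 18mo IOP retinas it had 55.4 and 408 FPKM, against 7.24 and 4.78 in 18mo control retinas. After 4 elevations it reached 284 and 825 FPKM, against 1.43 and 0.951 in the fellow eyes, and the higher value made it gene 17 of 25124 in that library. Every treated retina lay above every control retina. The ratio of the means was 11.1 at 3mo, 38.6 at 18mo and 466 after 4 elevations, and the lowest treated value was still 7.65 times the highest control value at 18mo and 199 times after 4 elevations. On the scale of log2(FPKM + 0.5), which shrinks the changes of weakly expressed genes, the fitted changes were 3.33 (standard error 0.75), 4.56 (0.75) and 8.18 (0.40). They stood at place 9, 1 and 2 when all tested genes were ordered from the largest rise down.

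Hp, the haemoglobin-binding member, was not measurable after a single elevation at 3mo and reached a moderate level only after 4 elevations. It had 2 reads in a single library of each of 3mo control, 3mo IOP and 18mo control, and 3 and 17 reads (0.0440 and 0.228 FPKM) in the 18mo IOP libraries. The ratio of reads per tag between 18mo IOP and 18mo control was 7.92, with a 95% interval from 1.92 to 69.9 that covers counting error only. In 4xIOP retinas it had 3.29 and 1.64 FPKM from 247 and 93 reads, against 0 reads in both control libraries, which is at least 45.1-fold higher when the controls are placed at 3 reads per library. Its fitted change of 2.51 (standard error 0.29) depends on the added 0.5, since the controls were at 0.

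Saa3 went from undetected to among the most abundant transcripts, and it did so after 4 elevations. It had 4.21 and 1.51 FPKM (120 and 33 reads) in 3mo IOP retinas and 0 reads in both 3mo control libraries, at least 22.2-fold higher against 3 reads per library. In 18mo IOP retinas it had 1.04 and 4.17 FPKM, against 0.261 (6 reads) and 0 in 18mo control retinas, and the ratio of reads per tag was 21.1 (95% interval 9.50 to 58.4, counting error only). In 4xIOP retinas it had 126 and 259 FPKM from 3708 and 5749 reads, with 0 reads in both controls, which is at least 1381-fold higher. It stood at place 121 and 77 of 25124 genes in those libraries, and at place 8502 or lower after a single elevation. The fitted changes were 2.62 (standard error 0.56) at 3mo, 2.12 (0.56) at 18mo and 8.50 (0.29) after 4 elevations, the last being the largest rise of all 13718 genes tested in that series.

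Serpina3n, the protease inhibitor, was the highest of the 5 in 7 of 12 libraries, in both 3mo IOP retinas among them. It had 106 and 120 FPKM in 3mo IOP retinas and 8.18 and 3.04 in 3mo control retinas. At 18mo it had 85.6 and 288 FPKM after IOP and 7.73 and 8.71 without. After 4 elevations it had 118 and 289 FPKM, against 0.593 and 1.34 in the fellow eyes. Treated and control retinas did not overlap in any series. The ratios of the means were 20.1, 22.8 and 210, and the fitted changes 4.35 (standard error 0.56), 4.18 (0.56) and 7.03 (0.38), at place 2, 2 and 3 among the tested genes.

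Steap4, the metalloreductase, stayed at lower levels. Its values were 2.12 and 1.98 FPKM in 3mo IOP against 0.108 and 0.107 in 3mo control retinas. At 18mo they were 7.15 and 21.9 FPKM after IOP against 0.845 and 0.634, and after 4 elevations 11.95 and 34.9 against 0.144 and 0.181. The groups did not overlap, and the ratios of the means were 19.1, 19.6 and 144. The fitted changes were 2.07 (standard error 0.43), 3.40 (0.43) and 4.99 (0.36), at place 57, 5 and 10 among the tested genes.

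**Figure D1:**
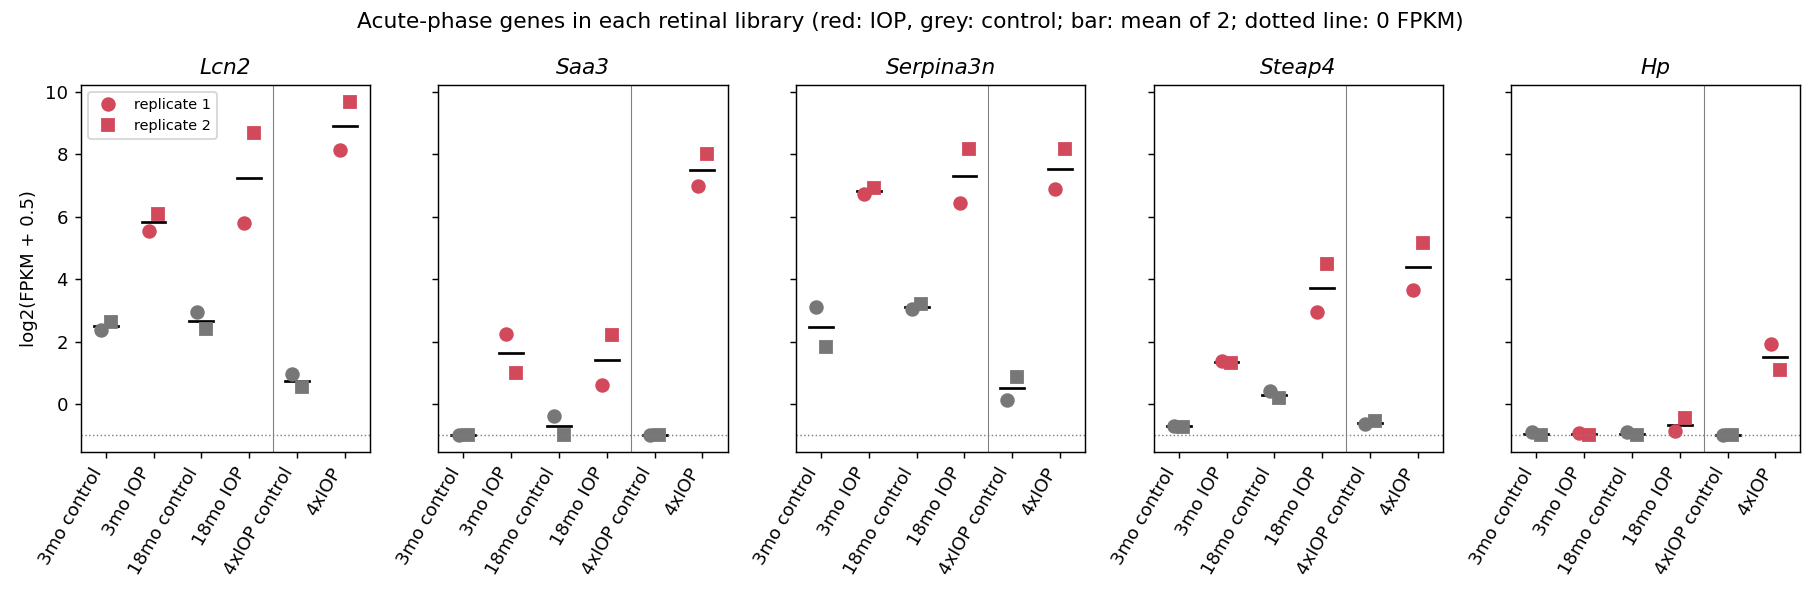
Level of each of the 5 genes in every library, as log2(FPKM + 0.5), with circles for replicate 1 and squares for replicate 2, red for IOP and grey for control retinas, and a black bar at the mean of the 2 log2 values. The dotted line is 0 FPKM and the vertical line separates the single-IOP from the repeated-IOP series. Lcn2, Serpina3n and Steap4 stand above their controls in all 6 treated libraries, and Saa3 and Hp are highest in 4xIOP.

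A gene was called when its limma p-value, adjusted over all tested genes by the method of Benjamini and Hochberg, was at most 0.05 and its absolute log2 fold change at least 1. After IOP at 3mo, 1 of 4 tested members was called higher (Serpina3n), where 0.568% of all tested genes were called higher and 0.575% in either direction. At 18mo, 1 of 4 was called (Steap4), where 0.117% of all genes were called higher and 0.124% in either direction. After 4 elevations, 5 of 5 were called, where 5.45% of all genes were called higher and 6.15% in either direction. Nothing is read from these counts, since the genes were chosen on these contrasts. The counts after a single elevation rest on few libraries, because leaving out 1 of the 8 libraries gave between 0 and 4 called members at 3mo and between 0 and 3 at 18mo. At 3mo the count was 4 without either 18mo IOP library, 1 without 3mo control replicate 2 and 0 without any other, and at 18mo it was 3 without 18mo IOP replicate 1, 2 without 18mo IOP replicate 2 and 0 without any other, while all 5 remained called after 4 elevations without any 1 of its 4 libraries. The median change of all tested genes was 0.13, 0.09 and 0.10 in the 3 comparisons, and above that median the smallest change of a member after a single elevation was 1.93 (Steap4, 3mo).

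**Figure D2:**
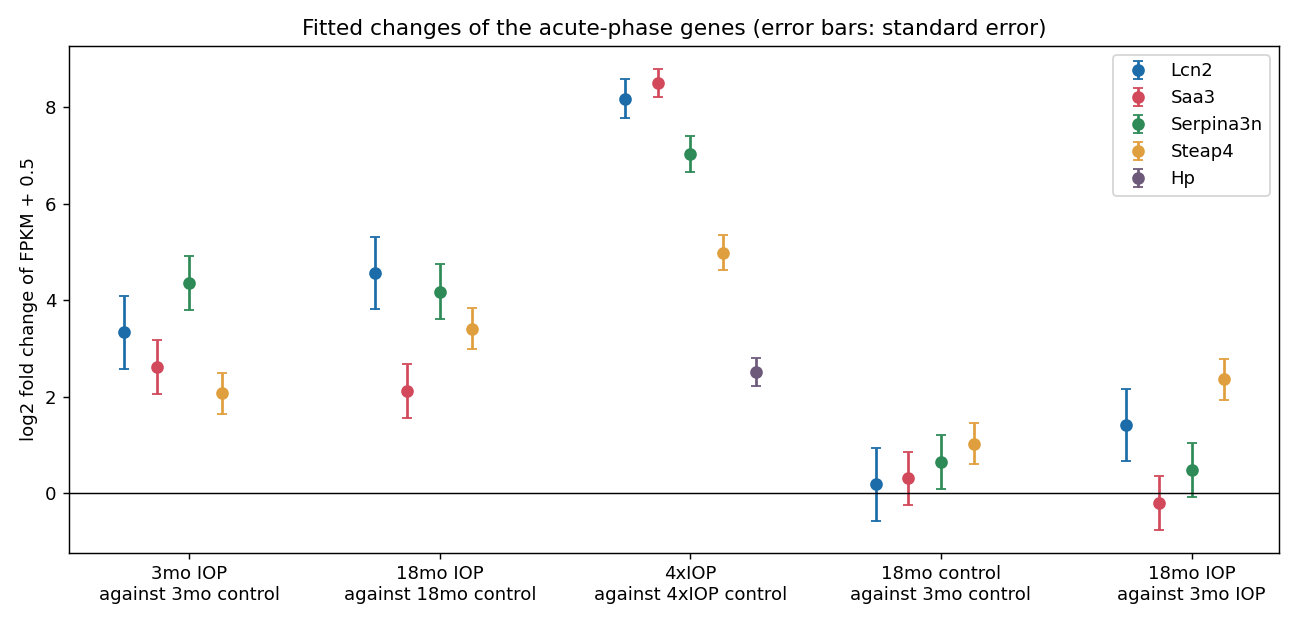
Fitted log2 fold change of each gene (vertical axis, FPKM + 0.5) in the 5 comparisons, with error bars of 1 standard error from limma and n = 2 libraries per group. The changes after 4 elevations run from 2.51 for Hp to 8.50 for Saa3, and those between control retinas of the 2 ages from 0.18 to 1.02. Hp was not tested in the single-IOP table.

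The proportions among the 5 genes differed between the series. FPKM is per length, so that levels can be set side by side within a library. Summed over the 5 genes, the level was 8.78 to 16.1 FPKM in the 4 control libraries of the single-IOP series and 2.17 and 2.47 in those of the repeated-IOP series. It was 159 and 192 FPKM in 3mo IOP, 149 and 723 in 18mo IOP, and 543 and 1409 in 4xIOP retinas. In the 4xIOP libraries the 5 genes took 0.134% and 0.288% of all reads in exons, against 0.000583% and 0.000836% in the 2 control libraries. Saa3 made up 23.2% and 18.4% of the summed level in 4xIOP retinas and at most 2.65% in any other library. Serpina3n made up 57.4% to 66.7% in the 3mo IOP retinas and 18mo IOP replicate 1, 39.9% in 18mo IOP replicate 2, and 21.7% and 20.5% in 4xIOP retinas. Lcn2 was 0.440 to 0.647 times as abundant as Serpina3n in 3mo IOP retinas and 18mo IOP replicate 1, 1.41 times in 18mo IOP replicate 2, and 2.41 and 2.85 times in 4xIOP retinas. The 2 series were tabulated separately and differ in the share of tags in exons, so that these differences between series were not tested.

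**Figure D3:**
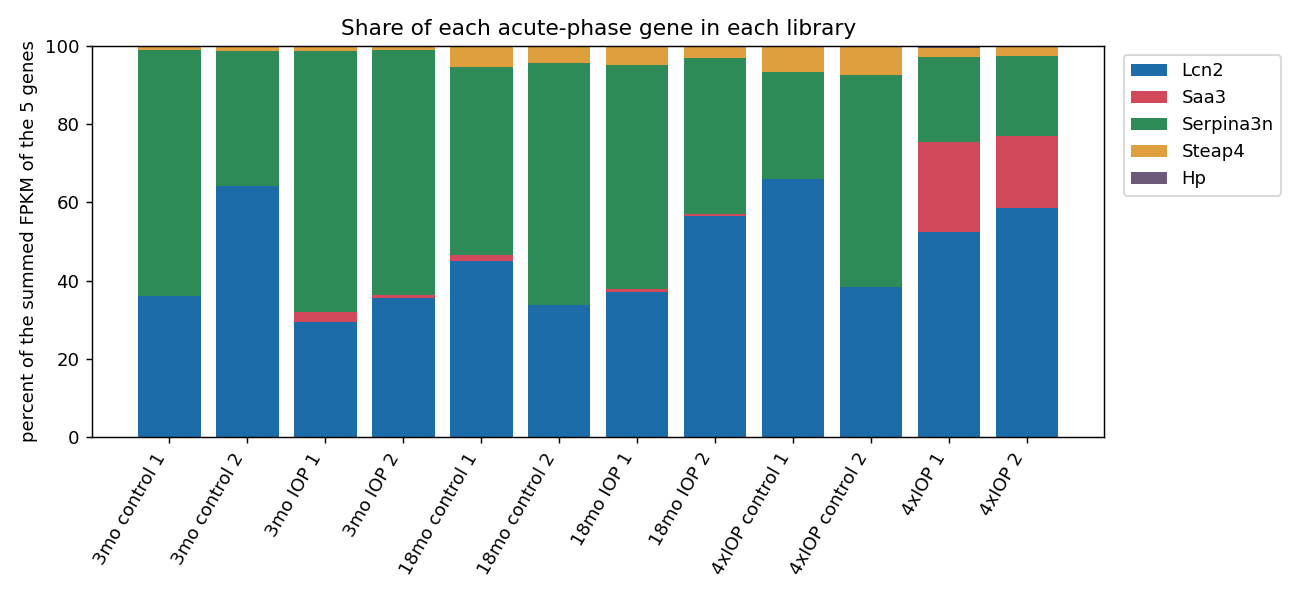
Share of each gene in the summed FPKM of the 5 genes (vertical axis, percent) for each of the 12 libraries. Saa3 takes 23.2% and 18.4% of the bar in 4xIOP and is hardly visible elsewhere, while Serpina3n takes more than Lcn2 in both 3mo IOP libraries.

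Across the 8 libraries of the single-IOP series, the log2 levels of the 4 tested members moved together, with Pearson's r between 0.80 (Saa3 with Steap4) and 0.96 (Lcn2 with Serpina3n) and Spearman's rho between 0.79 and 0.86. In the 4 libraries of the repeated-IOP series, r among these 4 was at least 0.99. These values describe libraries that share the treatment, and the selection of the genes on that treatment already sets much of them, so that no p-value is given. The replicates of a group separate the genes better. In 18mo IOP, replicate 2 stood above replicate 1 for every member, 7.37 times for Lcn2, 4.00 for Saa3, 3.37 for Serpina3n, 3.06 for Steap4 and, with 3 and 17 reads, 5.18 for Hp. In 4xIOP, replicate 2 was again the higher for Lcn2 (2.90 times), Steap4 (2.92), Serpina3n (2.46) and Saa3 (2.06), but Hp was the lower there, at 0.50 times. In 3mo IOP, Saa3 was lower in replicate 2 (0.359 times) while Lcn2 was higher (1.46 times) and Serpina3n and Steap4 were nearly level (1.14 and 0.938). Replicate numbers are only names, and no order is read from them.

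Markers of other cell types were set beside these values. Of 13 neutrophil markers other than Lcn2 and Hp, 7 were above 0 in each 4xIOP library, with a summed level of 36.4 and 45.7 FPKM, against 0.303 and 0.116 in the controls. Most of that came from S100a8 (20.2 and 26.5 FPKM) and S100a9 (12.1 and 16.0), while Ngp, Camp, Elane, Mpo and Retnlg were at 0 in both libraries. After a single elevation the sum was 1.32 to 2.30 FPKM in 3mo IOP and 4.04 to 4.799 in 18mo IOP, against 0.678 to 1.38 in the 4 control libraries, and Camp, Elane and Mpo were at 0 in all 4 treated libraries. The 14 markers of microglia and leukocytes summed to 266 and 268 FPKM in 4xIOP against 18.4 and 19.0 in its controls, to 196 and 118 FPKM in 3mo IOP against 40.7 and 57.1 in 3mo control, and to 351 and 196 in 18mo IOP against 116 and 122 in 18mo control retinas. The 6 astrocyte markers summed to 44.1 and 46.1 FPKM in 3mo IOP against 12.3 and 19.7 in 3mo control, to 56.99 and 114 in 18mo IOP against 21.4 and 20.2, and to 58.8 and 50.0 in 4xIOP against 11.0 and 10.7. Much of these sums in IOP retinas was Gfap, which reactive Müller glia also express, and the other 5 markers summed to 19.2 and 14.8 FPKM in 3mo IOP against 10.2 and 17.6, to 25.6 and 26.1 in 18mo IOP against 16.5 and 15.8, and to 12.7 and 17.4 in 4xIOP against 8.82 and 8.01. Müller glia markers summed to 3174 and 2914 FPKM in 18mo IOP against 2140 and 1728. Of these sums, Apoe had 1460 and 1513 FPKM against 671 and 560. The Müller glia sums overlapped at 3mo, with 1232 and 902 FPKM in IOP against 815 and 1180. They also overlapped in 4xIOP, with 978 and 1015.5 FPKM against 1007 and 1105. There the mean of Apoe was 373 FPKM against 162, while that of Glul was 270 against 586. Blood markers summed to 54.3 and 44.3 FPKM in 18mo IOP against 166 and 426, and endothelial markers to 64.1 and 65.7 in 4xIOP against 30.8 and 38.4.

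Markers of tissue next to the retina differed as well. The 13 lens markers summed to 102 and 101 FPKM in 3mo IOP against 48.1 and 71.9, to 83.5 and 183 in 18mo IOP against 47.7 and 39.2, and to 89.5 and 169 in 4xIOP against 15.1 and 10.6. Cryab, which is not specific to the lens, made up 76.9 and 161 FPKM of the 18mo IOP sums, while in 4xIOP the other 12 markers summed to 66.1 and 123.5 FPKM against 5.34 and 0.840 in its controls. Of the pigment epithelium markers, the 9 other than Otx2, which photoreceptors and bipolar cells also express, summed to 495 and 202 FPKM in 3mo IOP against 176 and 183, with Mlana at 124 and 69.0 FPKM against 11.4 and 4.57 and Pmel at 76.2 and 27.2 against 8.86 and 2.90. Tyr, Tyrp1 and Best1 were higher there too. Ttr (168 and 54.2 FPKM against 109 and 135), Rpe65 (20.5 and 5.59 against 17.6 and 18.2), Rdh5 and Lrat overlapped between these groups. In 4xIOP the 9 summed to 3.44 and 6.75 FPKM against 25.5 and 34.0. The part of these cells in the levels of the 5 genes was not tested.

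Between replicates, some marker sums differed in the direction of the members and others did not. In 18mo IOP, where replicate 2 had 3.06 to 7.37 times the level of replicate 1 for the 4 tested members, the microglia and leukocyte sum of replicate 2 was 0.559 times that of replicate 1, the Müller glia sum 0.918 times, the neutrophil sum 1.19 times and the ganglion cell sum 0.459 times. The astrocyte sum was 1.99 times and the lens sum 2.19 times as high in replicate 2. Gfap had 31.4 and 87.5 FPKM of the astrocyte sums, and the other 5 markers together 25.6 and 26.1, while Cryab had 76.9 and 161 FPKM of the lens sums and the other 12 markers 6.62 and 21.6. In 4xIOP, where 4 members were 2.06 to 2.92 times as high in replicate 2, the microglia and leukocyte sum stood at 1.011 times, the Müller glia sum at 1.04, the neutrophil sum at 1.26, the astrocyte sum at 0.850, the ganglion cell sum at 1.81 and the lens sum at 1.89. With 2 libraries per group these ratios are a description, and the part of these cells in the members' differences was not tested.

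**Figure D4:**
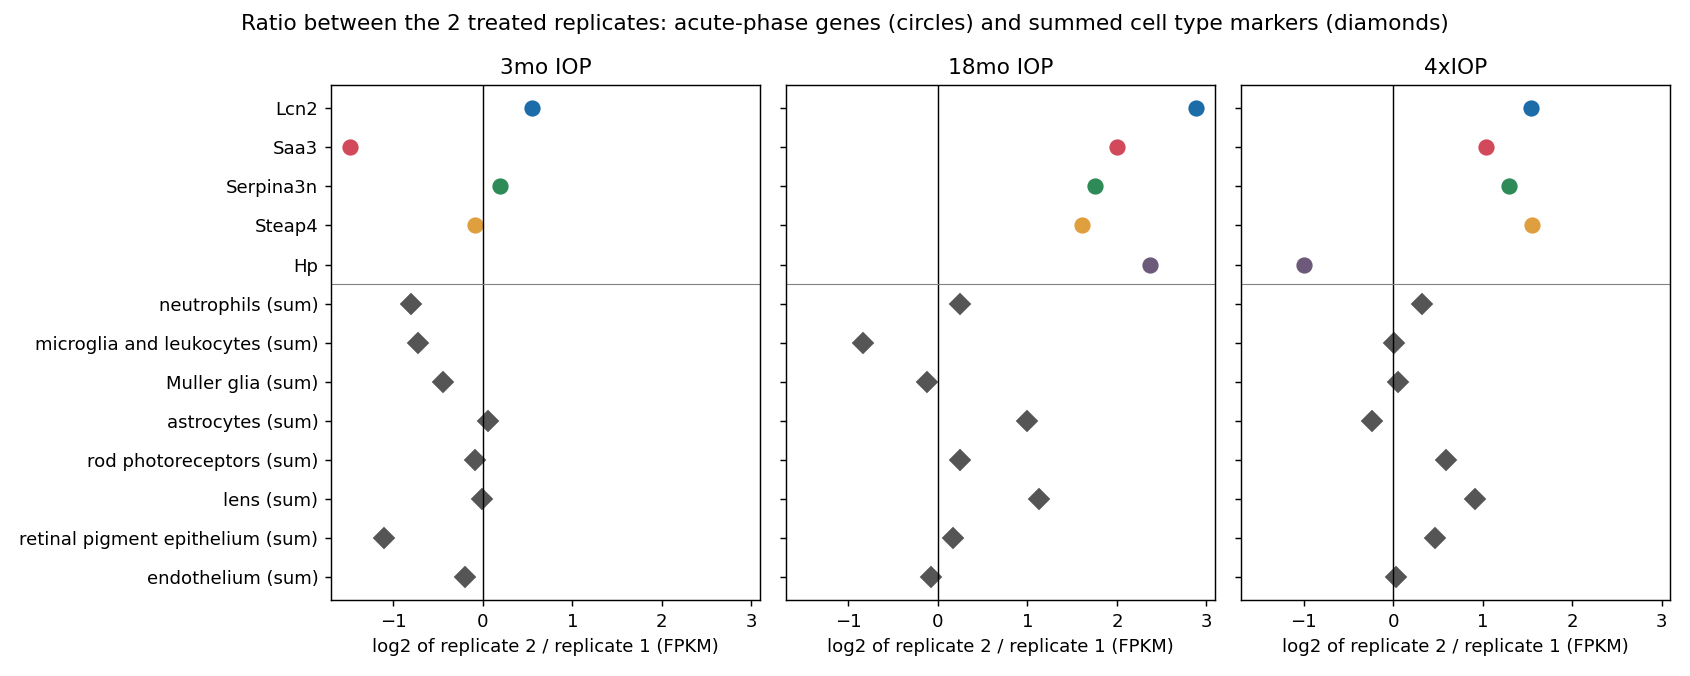
Log2 of the ratio of replicate 2 to replicate 1 in the 3 treated groups, for the 5 genes (circles) and for summed markers of 8 cell types (diamonds), with the vertical line at equal levels. In 18mo IOP the 5 genes lie to the right, as do the astrocyte and lens sums at ratios of 1.99 and 2.19 (mostly Gfap and Cryab), while the microglia and leukocyte sum lies to the left at a ratio of 0.559. Hp is not drawn for 3mo IOP, where replicate 2 had 0 reads.

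The next comparison asked how age bears on these genes. Between control retinas, Steap4 had 0.108 and 0.107 FPKM at 3mo and 0.845 and 0.634 at 18mo, with no overlap and a ratio of 6.88, although both levels are low and the fitted change was 1.02 (standard error 0.43). Lcn2 was 5.15 ± 0.672 FPKM at 3mo and 6.01 ± 1.74 at 18mo, and Serpina3n 5.61 ± 3.63 and 8.22 ± 0.693 (SD, n = 2 each), and the groups overlapped for both. By limma, 0 of 4 members were called, and 1 had an unadjusted p below 0.05, where 11.6% of all tested genes were called higher at 18mo and 23.2% in either direction, and limma with voom weights on the recovered reads also called 0. With a pseudocount of 0.1 or only the 2 groups compared, 1 member was called, where 3825 and 3005 genes in all were. Of the 3185 genes called, 1595 were higher, and with median-of-ratios size factors 1056 of 3015. The median of all tested genes was 0.16 here, and with quantile normalization the change of Lcn2 turned from 0.18 to -0.03. Marker sums of several cell types differed between the same control retinas. Endothelial markers summed to 15.2 and 11.8 FPKM at 3mo and 74.0 and 78.3 at 18mo, and microglia and leukocyte markers to 40.7 and 57.1 and to 116 and 122. Ganglion cell markers summed to 364 and 670 FPKM at 3mo and 62.6 and 118 at 18mo, and the 9 pigment epithelium markers other than Otx2 to 176 and 183 and to 10.04 and 2.67. Müller glia markers summed to 815 and 1180 FPKM at 3mo and 2140 and 1728 at 18mo. Their part in the difference of Steap4 and of the list genes between ages was not tested.

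Among IOP retinas, Steap4 was 14.5 ± 10.4 FPKM at 18mo and 2.05 ± 0.0926 at 3mo (SD, n = 2 each), a ratio of 7.08 without overlap and a fitted change of 2.36 (standard error 0.43). Between the same libraries, Müller glia markers summed to 1232 and 902 FPKM at 3mo and 3174 and 2914 at 18mo, endothelial markers to 18.2 and 15.9 and to 106 and 101, and the 9 pigment epithelium markers other than Otx2 to 495 and 202 and to 4.04 and 2.19, and their part was not tested. Steap4 was the only member of the 4 called in this comparison, where 10.2% of all tested genes were called higher and 21.8% in either direction, and it was not called without either of the 3mo IOP libraries. Lcn2 was 232 ± 249.3 FPKM against 57.2 ± 15.2, Serpina3n 187 ± 143 against 113 ± 10.4, and Saa3 2.60 ± 2.21 against 2.86 ± 1.91, and the 18mo values of all 3 enclosed or overlapped those at 3mo. Without 18mo IOP replicate 2, the change of Lcn2 was -0.02 in place of 1.41 and that of Serpina3n -0.40 in place of 0.48. Of the 3000 genes called, 1407 were higher, and with median-of-ratios size factors 1108 of 2884. With the trend of transcript length removed from each library, Saa3 changed sign, from -0.20 to 0.86.

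Whether the response to a single elevation differed between the ages was described by the interaction term of IOP and age. This term is a difference of contrasts that the choice of genes used, on the same 8 libraries, so that no p-value is given for the members. For Steap4 the change at 18mo minus that at 3mo was 1.34 on the log2 scale (95% interval of the fit -0.05 to 2.72). For Lcn2 it was 1.23 (interval -1.23 to 3.68). For Serpina3n the difference was -0.17 (interval -2.0 to 1.66) and for Saa3 -0.50 (interval -2.32 to 1.31). Across all genes, 0% of the 13731 tested passed an adjusted p of 0.05 by limma for this term, and 218 had an unadjusted p below 0.05, with 0 members among either. The intervals span differences of more than 2 log2 units for Lcn2, so that they show neither a difference between the ages nor its absence.

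The group means of Lcn2, Serpina3n and Steap4 were ordered alike, with 4xIOP highest, then 18mo IOP, then 3mo IOP, although the 2 series were normalised in separate tables. For Lcn2, the values of 4xIOP and 18mo IOP overlapped, as did those of 18mo IOP and 3mo IOP, and all 3 lay above the controls. For Steap4, 4xIOP (11.95 and 34.9 FPKM) overlapped 18mo IOP (7.15 and 21.9), and 18mo IOP did not overlap 3mo IOP (2.12 and 1.98). For Serpina3n the 3 treated groups overlapped each other. For Saa3, 4xIOP lay apart at 126 and 259 FPKM, and 3mo IOP and 18mo IOP overlapped, with 4.21 and 1.51 FPKM against 1.04 and 4.17.

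The relatives of these genes and the genes that act before and after them were taken from 7 lists of 142 genes in all, without the members. At 3mo, 12 of 87 tested list genes were called higher and 0 lower, at 18mo 5 of 87 higher and 0 lower, and after 4 elevations 47 of 84 higher and 1 lower, beside the shares of all tested genes given above for the same comparisons. The counts after a single elevation depended on the processing, as did those over all genes. At 3mo the list count was 3 with median-of-ratios size factors and 1 with voom, where 10 and 3 genes in all were called in place of 79. At 18mo 0 genes in all, in place of 17, were called with size factors, voom, a pseudocount of 0.1, only the 2 groups compared or the replicate block. Without 1 of the 8 single-IOP libraries the list count was 0 to 18 at 3mo and 0 to 21 at 18mo. Of the genes called higher after IOP, 2 of 12 at 3mo, 0 of 5 at 18mo and 22 of 47 after 4 elevations had a mean below 0.5 FPKM over the control libraries of their table, and so could be tested only because they were higher in IOP retinas. Between the ages, 34 of 87 were called higher and 2 lower among control retinas, and 37 higher and 3 lower among IOP retinas, beside 11.6% and 10.2% of all tested genes called higher. Of these list genes, 6 of the 34 and 8 of the 37 had a mean below 0.5 FPKM over the 3mo libraries, and so could be tested only because they were higher at 18mo. In the control comparison, 0 of 6 liver acute-phase genes and 0 of 11 Steap and iron genes were called by limma, with 4 and 7 at an unadjusted p below 0.05, and 10 of 23 reactive glia genes were called higher and 2 lower. The lists were written with results of these data in view, so that these counts describe them and are no independent evidence of a direction.

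Most acute-phase proteins of the liver stayed below the filter on low values. Of 29 listed, 6 passed the filter in each series, and 7 were at 0 in all 8 single-IOP libraries and 10 in all 4 repeated-IOP libraries. Saa1, the nearest relative of Saa3 in the liver response, did not exceed 0.353 FPKM in any library, the C-reactive protein gene Crp 0.323, the orosomucoid gene Orm1 0.0470 and the hemopexin gene Hpx 0.568. Those that did change are known from glia, macrophages and vessels as well. After 4 elevations, 5 of 6 were called higher, with a median change of 1.51 where that of all tested genes was 0.10. Of these, the protease inhibitor A2m went from 0.837 ± 0.469 to 17.9 ± 1.54 FPKM (a change of 3.83 on the log2 scale, adjusted p = 5.7e-07 by limma). Cp, encoding the ferroxidase ceruloplasmin, went from 19.2 ± 6.12 to 159 ± 60.3 FPKM (3.00, adjusted p = 7.5e-05 by limma). Cd14, a co-receptor for lipopolysaccharide, went from 0.427 ± 0.00212 to 2.35 ± 0.452 FPKM (1.61, adjusted p = 0.000401 by limma). At 3mo, 1 of 6 was called higher, with a median of 0.94. At 18mo, 0 of 6 were called by limma, with 3 at an unadjusted p below 0.05 and a median of 1.03.

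The Serpina3 cluster on chromosome 12 holds several near-identical copies of Serpina3n, and only tags that mapped uniquely were counted, so that reads of the copies are uncertain. Of the 10 other members listed, 0 passed the filter in the single-IOP series and 2 in the repeated-IOP series, and those 2 were called higher. Both reached the filter only through the 4xIOP libraries, so that they had to be higher there once tested, and the count is no support for a direction. Serpina3i went from 0.0110 ± 0.0156 to 1.58 ± 0.533 FPKM (a change of 2.00 on the log2 scale), with 2 reads in the controls and 329 in 4xIOP libraries, a ratio of reads per tag of 137 (95% interval 37.7 to 1138, counting error only). Serpina3g went from 0.0825 ± 0.0417 to 0.973 ± 0.108 FPKM (1.34). The highest level of any of the 10 was 1.96 FPKM, in the library where Serpina3n had 289.

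Among Steap4's relatives and iron partners, 11 were tested in the single-IOP series and 10 in the repeated-IOP series. At 3mo and 18mo, 0 of 11 were called by limma, and 4 and 6 had an unadjusted p below 0.05. After 4 elevations 2 of 10 were called higher. Hmox1, encoding the haem-degrading enzyme haem oxygenase 1, went from 0.899 ± 0.0707 to 9.06 ± 1.196 FPKM (a change of 2.77 on the log2 scale, adjusted p = 1.3e-06 by limma). Trf, encoding transferrin, went from 26.2 ± 5.22 to 155 ± 66.5 FPKM (2.48, adjusted p = 0.000385 by limma). Of the other metalloreductases, Steap3 had 1.497 and 1.21 FPKM in 4xIOP against 0.567 and 0.593 in control retinas, without overlap, and a log2 fold change of 0.77 (standard error 0.23) that was not called. Steap2 had 4.82 and 4.63 FPKM against 6.22 and 5.88, also without overlap and not called (-0.32, standard error 0.19). Steap1 was lower in 18mo IOP than in 3mo IOP retinas (0.295 ± 0.0757 against 1.21 ± 0.105 FPKM, -1.10), where Steap4 was higher. Steap1 passed the filter on low values only through the 3mo libraries, so that its call supports no direction.

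For receptors, scavengers and partners of the secreted products, 0 of 8 tested genes were called at 3mo and 0 of 8 at 18mo by limma, with 2 and 3 at an unadjusted p below 0.05, and 3 of 10 were called higher after 4 elevations. Slc22a17, described as a receptor of lipocalin-2, had 14.8 to 40.3 FPKM in all 12 libraries and log2 fold changes of 0.37, -0.11 and -0.14 after IOP at 3mo, at 18mo and after 4 elevations. Cd163, the receptor that clears haptoglobin with haemoglobin, did not exceed 0.162 FPKM. The called genes were receptors of bacterial and damage products carried by myeloid cells. All 3 had control means below the filter on low values and were tested only because they were high in 4xIOP retinas, so that no p-value is given for them there and the count supports no direction. Tlr2 went from 0.0755 ± 0.0813 to 2.66 ± 0.276 FPKM (a change of 2.46 on the log2 scale). Fpr1 went from 0 in both controls to 1.73 ± 0.264 FPKM, and Fpr2, which binds serum amyloid A, from 0.0575 ± 0.0290 to 1.27 ± 1.07 FPKM (1.52). Between the ages, Tlr2, Lrp1 and Scarb1, 3 of 8, were called higher at 18mo among control retinas, where 11.6% of all tested genes were called higher, and among IOP retinas, where 10.2% were. The mean of Tlr2 over the 3mo libraries was below the filter, so that it was tested only through the 18mo libraries.

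Among inducing cytokines and their receptors, interleukin-6 itself was not measured above 0.188 FPKM in any library. Osmr, the receptor of oncostatin M, was the list's gene called in all 3 IOP comparisons, although its call at 18mo was lost under each setting, given above, that called no gene there. It went from 1.37 ± 0.270 to 5.01 ± 0.639 FPKM at 3mo, from 3.34 ± 0.426 to 12.8 ± 2.90 at 18mo and from 1.05 ± 0.383 to 8.20 ± 1.19 after 4 elevations (log2 fold changes 1.56, 1.78 and 2.51). The counts of called genes were 2 of 18, 1 of 18 and 7 of 14. Tnfrsf1a, a receptor of tumour necrosis factor, was called at 3mo (0.952 ± 0.0198 to 4.71 ± 1.33 FPKM, 1.82, limma adjusted p = 0.0325) and after 4 elevations (0.647 ± 0.0841 to 6.40 ± 0.741 FPKM, 2.59). Il1b, encoding interleukin-1 beta, had the largest change of the list after 4 elevations, from 0.0175 ± 0.0247 to 4.45 ± 0.390 FPKM (3.26), and it too was tested only through the 4xIOP libraries. Lif, a cytokine that signals through STAT3, had 1.77 and 12.8 FPKM in the 18mo IOP libraries, the higher value being in the library with the higher Lcn2, and with 0.607 and 0.375 FPKM in 3mo IOP retinas it passed the filter on low values only through the 18mo IOP libraries. Between control retinas of the 2 ages, where 11.6% of all tested genes were called higher and 23.2% in either direction, 8 of 18 were called higher, led by Il1a (0.123 ± 0.0686 to 6.62 ± 1.39 FPKM), Tnf (0.0130 ± 0.0184 to 2.80 ± 0.150) and the receptor Cntfr (4.17 ± 0.95 to 21.3 ± 0.434). Il1a and Tnf passed the filter only through the 18mo libraries, so that they had to be higher there once tested.

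Of the inducing transcription factors and their feedback genes, 2 of 24 were called after IOP at 3mo, 0 of 24 at 18mo by limma, where 15 had an unadjusted p below 0.05, and 13 of 22 after 4 elevations, 12 of them higher. Cebpd, encoding C/EBP delta, went from 3.55 ± 1.57 to 39.3 ± 4.59 FPKM at 3mo (a change of 3.35 on the log2 scale, adjusted p = 0.0322 by limma) and from 1.14 ± 0.400 to 25.4 ± 3.72 after 4 elevations (3.99). Socs3, a feedback inhibitor of STAT3 signalling, went from 0.879 ± 0.110 to 6.93 ± 1.19 FPKM at 3mo (2.42) and from 0.332 ± 0.0269 to 14.7 ± 2.13 after 4 elevations (4.19). Bcl3, a partner of NF-kB, went from 0.0675 ± 0.0219 to 5.78 ± 1.27 FPKM after 4 elevations (3.45), and in that series Socs3 and Bcl3 were tested only through the 4xIOP libraries. The gene called lower after 4 elevations was Tnfaip3, an inhibitor of NF-kB signalling, with 53.5 and 66.0 FPKM in the controls and 14.8 and 18.4 in 4xIOP retinas (-1.82), named here after its values were seen. At 18mo against 3mo, 14 of 24 were called higher among control retinas, where 11.6% of all tested genes were called higher and 23.2% in either direction. The microglia and endothelial marker sums given above were also higher there. The 14 were led by Junb (3.96 ± 0.331 to 65.2 ± 32.6 FPKM), Socs3 (0.879 ± 0.110 to 15.0 ± 7.98) and Cebpb (0.853 ± 0.189 to 7.05 ± 2.55).

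The reactive glia list holds genes that Müller glia and astrocytes are known to turn on after injury. Of 23 tested, 8 were called higher at 3mo, 5 at 18mo and 17 after 4 elevations, with the losses under other settings described above for the first 2 counts, and the medians were 1.35, 1.505 and 1.97. Timp1, an inhibitor of matrix metalloproteases, went from 0.320 ± 0.0134 to 19.2 ± 2.52 FPKM at 3mo (log2 fold change 4.58), from 0.753 ± 0.0361 to 25.2 ± 20.3 at 18mo (4.09) and from 0.136 ± 0.112 to 44.2 ± 26.6 after 4 elevations (6.01). Gfap, the intermediate filament of reactive Müller glia and astrocytes, went from 2.11 ± 0.0212 to 28.1 ± 4.45 FPKM at 3mo (3.44) and from 4.63 ± 0.342 to 59.4 ± 39.6 at 18mo (3.37). Edn2, encoding endothelin 2, went from 1.03 ± 0.214 to 21.6 ± 3.64 FPKM at 3mo (3.85), from 10.9 ± 1.14 to 112 ± 73.2 at 18mo (3.13) and from 0.383 ± 0.492 to 34.5 ± 1.21 after 4 elevations (5.43). In the repeated-IOP series Timp1 and Edn2 were tested only through the 4xIOP libraries. Serping1, the inhibitor of complement C1, went from 1.43 ± 0.0226 to 33.7 ± 6.05 FPKM after 4 elevations (4.13, adjusted p = 1.3e-07 by limma).

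**Figure D5:**
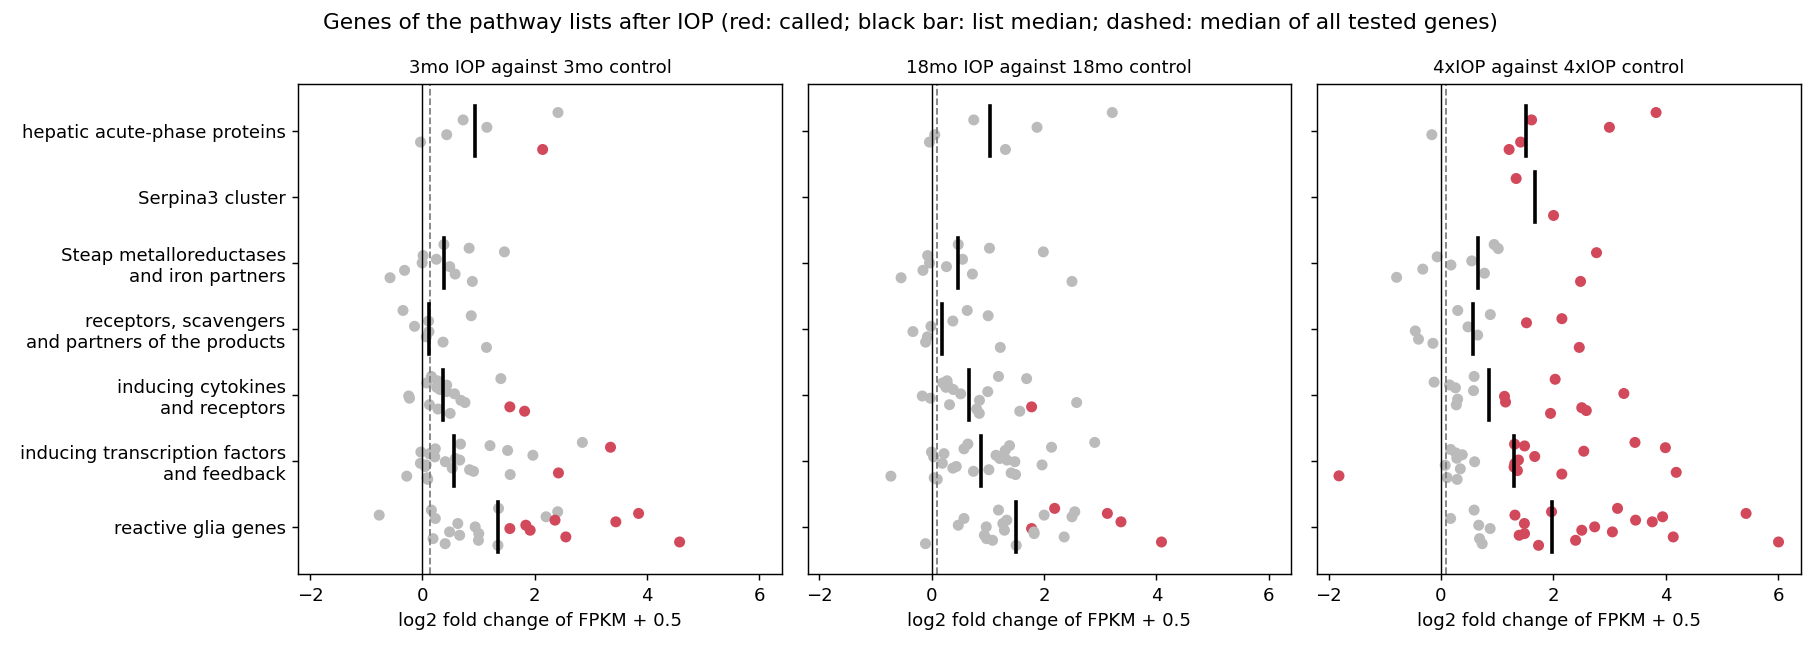
Log2 fold change (horizontal axis, FPKM + 0.5) of each tested gene of the 7 lists in the 3 IOP comparisons, red where called, with a black bar at the list's median and a dashed line at the median of all tested genes. The reactive glia list has medians of 1.35, 1.505 and 1.97, and the list of receptors and partners has medians of 0.11 and 0.18 after a single elevation, with genes on both sides of 0.

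The genes whose pattern was most like that of the members were sought over the 8 single-IOP libraries, by Pearson's r of log2(FPKM + 0.5) with the mean of the 4 standardized members, among 12420 genes whose mean level reached 1 FPKM. The 10 most alike were Gfap (r = 0.99), Spsb2, E2f6 (both 0.98), Bcl3, Timp1, Dhx40, Ipo5 (0.98 each), Lrrc2, Serping1 and Tmem120b (0.97 each). Taken singly, Lcn2 was nearest to Ipo5, Chil1 and Cp (r = 0.99 each), Serpina3n to Timp1, Gfap and E2f6 (0.99, 0.98 and 0.98), Steap4 to Twf1, C1ra and A2m (0.99 each), and Saa3 to Abhd11, 2810032G03Rik and Tubb6 (0.99, 0.98 and 0.98). In the 4 libraries of the repeated-IOP series, r with the mean of the members was 0.97 for Gfap and above 0.99 for Spsb2, E2f6, Timp1, Lrrc2 and Serping1, and 0.66 for Dhx40. The points share the treatment and, in each series, 2 or more library groups, so that a high r is easily reached with 8 points, and nothing about shared function is read from it.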

How the data were processed

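Retinas of C57BL/6J mice were sequenced by the authors as strand-specific poly-A libraries, 12 in all. The authors aligned reads with STAR 2.7.8a to mm10 and counted uniquely mapped tags in the exons of 1 isoform per gene with HOMER, and deposited FPKM values in 2 separately normalised tables, so that a gene with near-identical copies, such as Serpina3n, may be undercounted. From each table, whole reads were recovered for 100% of the values checked (within 0.05 of a read), which gave tags per library.

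Genes whose mean level reached 0.5 FPKM were fitted with limma 3.58.1 in R 4.3.3 on log2(FPKM + 0.5), with a trended variance, 1 coefficient per group and all groups of a table in the fit. P-values were adjusted over all tested genes by Benjamini-Hochberg, and a gene was called where the adjusted p did not exceed 0.05 and the log2 fold change was 1 or more in size. The model was tested on simulated data before use. Against controls without reads, folds were computed with the controls at 3 reads per library, and counting intervals were exact at 95%. The members and the gene lists were chosen with earlier results of these data known. From the lists, the text names up to 3 called genes per list and comparison with the largest change, and other list genes (Saa1, Crp, Orm1, Hpx, Slc22a17, Cd163, Steap2, Steap3, Il6, Tnfaip3 and Lif's levels per library) were named after their values were seen. A further gene that the rule gave is not reported here. With 2 libraries per group, precision was limited. Alternatives were 2 other pseudocounts, other filters, size factors, quantile normalisation, removal of the trend of transcript length, voom on recovered reads, a fit of only the groups compared, a replicate block and leaving out each library.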

Additional observations from a re-analysis of the deposited data

How the results depend on the processing

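After 4 elevations, all 5 members were called under each alternative run except a required mean of at least 2 FPKM, under which Hp was not tested and 4 were called. The pathway count of 48 was 31 under that filter, which tests fewer genes, and 37 to 49 under the others. The counts after a single elevation did depend on the processing, and the cause was not tested. At 3mo (1 member, 12 pathway genes), members called were 0 with median-of-ratios size factors, no filter, quantile normalization or voom, 2 with a pseudocount of 0.1 and 4 with only the 2 groups compared, and pathway genes 3 with size factors or quantile normalization and 1 with no filter or voom. At 18mo (1 and 5), members were 2 with a pseudocount of 1 and 0 with a pseudocount of 0.1, a mean of at least 2 FPKM, no filter, size factors, quantile normalization, voom or only the 2 groups compared, and pathway genes 1 with quantile normalization and 0 with size factors, no filter, voom, a pseudocount of 0.1 or only the 2 groups compared. Between control retinas of the 2 ages, 1 member was called in place of 0 with a pseudocount of 0.1 or only the 2 groups compared, and between IOP retinas 2 in place of 1 with the length trend removed.

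Leaving out 1 library gave 0 to 4 members and 0 to 18 pathway genes at 3mo, 0 to 3 and 0 to 21 at 18mo, 0 to 1 and 18 to 40 between control retinas of the 2 ages, 0 to 2 and 16 to 48 between IOP retinas, and 5 to 5 and 38 to 44 after 4 elevations. A group left with 1 library was assumed to vary like the others.

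The controls are fellow eyes, but the labels do not say which control and treated library came from the same mouse. Over all genes, libraries with the same number did not deviate together (r = -0.28 at 3mo, -0.53 at 18mo and -0.29 after 4 elevations). Blood markers at 3mo did follow the number, with 19.5 and 29.3 FPKM in the replicates 1 and 262 and 313 in the replicates 2. With 2 libraries per group these values neither show nor exclude pairing. With the replicate block, pathway genes were 4 at 3mo and 0 at 18mo, and members 0 at 18mo, where 20 and 0 genes in all were called. With a crossed replicate block, chosen after seeing the data, members were 4 at 3mo, 4 at 18mo, 1 between control and 2 between IOP retinas of the 2 ages, and pathway genes 25 at 3mo and 39 at 18mo. Over all genes, that block called 312 at 3mo and 306 at 18mo, in place of 79 and 17. Between the ages it called 3296 among control and 3143 among IOP retinas, in place of 3185 and 3000.

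Changes that turned in direction were all between ages. Between control retinas, Lcn2 was -0.029 with quantile normalization, and without 1 library it ran from -0.093 (18mo control replicate 1) to 0.46. Between IOP retinas, Saa3 was 0.86 with the length trend removed and ran without 1 library from -0.998 to 0.60 (18mo IOP replicate 1), being 0.42 without 3mo IOP replicate 1. Lcn2 ran from -0.023 and Serpina3n from -0.40, both without 18mo IOP replicate 2, to 2.85 and 1.35, both without 18mo IOP replicate 1. The interaction was 0.68 for Serpina3n with quantile normalization and -0.036 for Steap4 with voom. Without 1 library it ran for Serpina3n from -1.05 to 0.70 (18mo IOP replicate 1), being 0.47 without 3mo control replicate 2, for Lcn2 from -0.21 (18mo IOP replicate 2) to 2.67, and for Saa3 from -1.30 to 0.30 (18mo IOP replicate 1), being 0.11 without 3mo IOP replicate 1.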
